A study of Mus musculus with 10 samples.

Results

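Mouse lung was examined 12 weeks after irradiation of the thorax, by setting the irradiated pool of that time against the control pool of the same time. These are 2 of the 10 libraries of the series. The mice were C57BL/6J, an inbred laboratory strain. The irradiated mice had received 12.5 Gy of γ-radiation to the whole thorax, and the age-matched controls 0 Gy. Each library holds total RNA from a suspension of whole-lung cells pooled from 3 mice, so mice within a pool cannot be separated. There was 1 pool per treatment and time, and no second irradiated pool at 12 weeks. The 4 control pools of the other times (24 hours and 1, 4 and 32 weeks) were used to show how far unirradiated lungs differ from each other.

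Thoracic irradiation of mice is a standard model of radiation injury of the lung, in which an early response is followed over weeks to months by pneumonitis and, depending on strain and dose, by fibrosis. The gas-exchange surface is lined by flat alveolar type 1 cells and by alveolar type 2 cells, which make surfactant and can give rise to type 1 cells. Beneath them lies a dense bed of capillary endothelium, and macrophages patrol the air spaces and the tissue between them. The comparison at 12 weeks asks which genes of these compartments differ from unirradiated lung.

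Levels are CPM, the deposited counts scaled to library size with TMM factors, which correct for differences in composition. Deposited totals were 12897121 in the 12-week irradiated pool and 12018922 in its control. Divided by the value that 1 fragment has in each library, they correspond to 12719054 and 8677922 fragments, the latter the fewest of the 10 libraries. Markers of epithelium, endothelium, connective tissue and leukocytes were all detected. Red cell genes summed to 38330 CPM in the irradiated pool, 34610 in its control and 7518 to 68820 over the 5 controls. Mitochondrially encoded genes took 1.22% of the irradiated library and 1.48% to 2.16% of the control libraries.

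Against the 5 controls, 0 of 15625 genes were higher and 0 lower at an adjusted p under 0.05 in edgeR's quasi-likelihood test with Benjamini-Hochberg adjustment (0% called in each direction, smallest adjusted p 0.098). At an unadjusted p under 0.05, 774 genes were higher and 895 lower. On the same libraries DESeq2's Wald test called 67 higher and 171 lower, and limma on log2(FPKM + 1) called 44 and 11. Many of limma's higher calls were microRNAs, small nucleolar RNAs or predicted genes, such as Mir7235, Snord104 and Gm24927. As the tools differed, the genes below are described by their level in each pool. Of all genes tested, 21.9% lay above all 5 controls and 21.5% below all 5. A gap of at least 1.5-fold to the nearest control was rarer, at 1.47% (230 genes) above and 3.81% (596 genes) below. On the deposited FPKM, without TMM factors, 34.4% lay above and 12.2% below, and the median gene stood 0.12 higher (log2) than in the 12-week control, so the FPKM counts of a list are given where they differ.

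The genes of alveolar type 2 cells formed the list with the lowest median. All 17 were tested, 16 lay below all 5 controls, 12 of them by at least 1.5-fold, and 0 lay above. The median difference from the 12-week control was -1.69 (log2), where the median of all genes tested was 0. Summed over the list, the level was 8588 CPM in the irradiated pool, 37240 in the 12-week control and 25410 to 45630 over the controls. On FPKM 13 of the 17 were below all 5 controls and 0 above. In bulk RNA, fewer cells of a type and less RNA per cell cannot be told apart.

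Sftpc, which encodes surfactant protein C, a product of type 2 cells, stood at 4967 CPM in the 12-week irradiated pool. In the controls it was 32379 CPM at 24 hours, 22213 at 1 week, 20572 at 4 weeks, 26923 at 12 weeks and 18591 at 32 weeks. The irradiated value was 5.42-fold below the matched control and lay under the lowest of the 5. The log2 difference from the 5 controls was -2.28 ± 0.36 (SE; adjusted p = 0.121, edgeR).

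The other surfactant proteins were also low. Sftpa1, a collectin of surfactant, was at 1517 CPM, with 4898 in the matched control and 3071 to 6213 over the 5. Sftpd, the other collectin, was at 259.8 CPM against 747 in the matched control and 569 to 1197 over the 5. Sftpb, needed for the surfactant film, was at 86.1 CPM against 243 and 216 to 584. In none of these did the irradiated value overlap the controls. Adjusted p-values were 0.202 for Sftpa1, 0.202 for Sftpd and 0.266 for Sftpb (edgeR).

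Because the surfactant genes were low together, the 250 bases before the transcription start of the 2 held in the promoter table that were described above are shown, from RefSeq (GRCm38.p6). Capitals mark CAAGTG or CTCAAG on either strand, short core forms of the site bound by the lung transcription factor NKX2-1.
Sftpa1 (chr14:41131538-41131787, plus strand): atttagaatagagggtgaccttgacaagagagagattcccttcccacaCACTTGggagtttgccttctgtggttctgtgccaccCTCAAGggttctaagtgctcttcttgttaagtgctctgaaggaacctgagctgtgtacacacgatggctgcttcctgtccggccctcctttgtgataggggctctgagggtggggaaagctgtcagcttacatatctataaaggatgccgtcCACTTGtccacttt
Sftpb (chr6:72304360-72304609, plus strand): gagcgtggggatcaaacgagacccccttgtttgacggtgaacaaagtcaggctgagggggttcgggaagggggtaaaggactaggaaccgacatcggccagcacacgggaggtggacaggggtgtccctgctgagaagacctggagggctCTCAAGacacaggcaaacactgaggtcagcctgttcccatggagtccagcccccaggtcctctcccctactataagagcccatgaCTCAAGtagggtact
RefSeq promoters were matched for 14 of the 17 type 2 genes (15 promoters). CAAGTG stood in 2 of the 15 (13.3%) and in 11.6% of all 32851 promoters of the same length. CTCAAG stood in 2 of the 15 (13.3%) and in 13.3% of all. The share of promoters with these letters was thus close in the type 2 list and at large, and a match is a description, not a site or a cause.

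Genes for surfactant storage and lipid handling were low to unequal degrees. Lamp3, a protein of the lamellar bodies that store surfactant, was at 57.6 CPM against 247 in the matched control and 119 to 297 over the 5. Slc34a2, a phosphate transporter of type 2 cells, was at 275 CPM against 1119 and 629 to 1287. Lpcat1, an enzyme of surfactant phospholipid synthesis, was at 148 CPM against 342 and 219 to 370.0. Abca3, the lipid pump of lamellar bodies, and Napsa, a protease that processes surfactant protein B, were nearer to the controls. Abca3 was at 160.1 CPM against 187 to 266, and Napsa at 481 against 562 to 804. Lyz1, a lysozyme, was the member within the controls, at 229.9 CPM against 217 to 721.

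A regulator and secreted products of the same cells lay below the controls too. Nkx2-1, the transcription factor that sets lung epithelial identity, was at 4.49 CPM against 16.1 in the matched control and 8.67 to 19.7 over the 5. Etv5, a transcription factor that maintains type 2 cells, was at 49.97 CPM against 146 and 103 to 149.7. The calcium-binding S100g was at 11.6 CPM against 55.3 in the matched control, and the chemokine Cxcl15 at 119.8 against 458. The chitinase Chia1 was at 44.5 CPM against 156, complement component Hc at 111 against 383 and the mucin Muc1 at 65 against 139. DESeq2 called 13 of the 17 type 2 genes lower, while edgeR called 0.

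**Figure D1:**
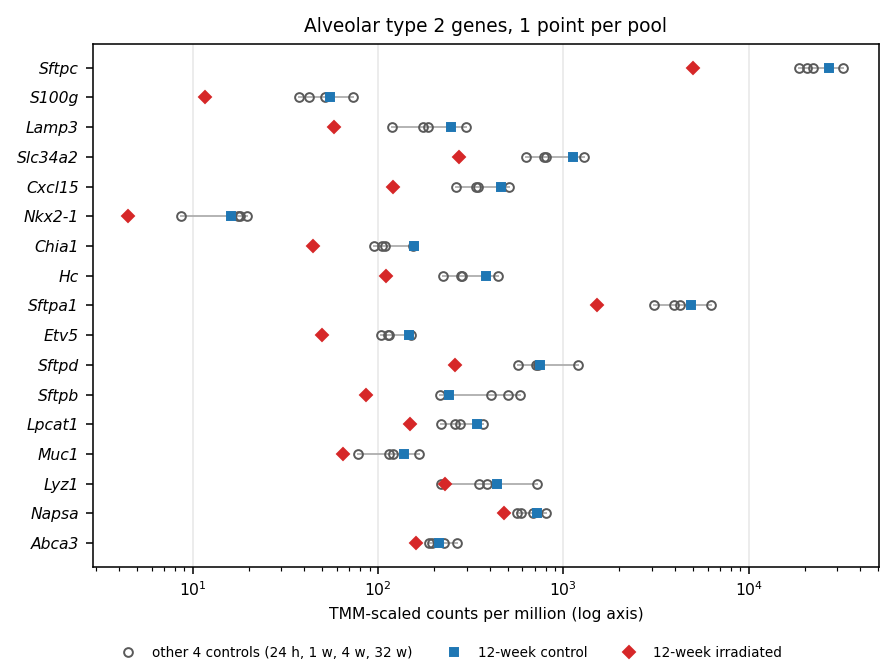
Level of the 17 alveolar type 2 genes in CPM (log axis), with 1 point per pool of 3 mice: the 12-week irradiated pool (diamonds), the 12-week control (squares) and the other 4 controls (circles), with grey lines spanning the 5 controls. The diamond lies left of every control for 16 of the 17 genes, Lyz1 being the exception.

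Alveolar type 1 genes were less uniform. Of 15 tested, 4 lay below all 5 controls, each by at least 1.5-fold, and 11 within them, with a median of -0.47 (log2) against the matched control. On FPKM 4 of 14 were below and 2 above. Ager, a receptor that marks type 1 cells, was at 88 CPM, and in the controls it was 322 CPM at 24 hours, 216 at 1 week, 248 at 4 weeks, 218 at 12 weeks and 173 at 32 weeks. Its irradiated value lay under each control, with an adjusted p of 0.187 (edgeR). The tight junction protein Cldn18 was at 43.2 CPM against 117 in the matched control, the water channel Aqp5 at 22.3 against 38.3 and the receptor Gprc5a at 24.2 against 51.4. In the airway epithelium, 5 of 16 club cell genes and 3 of 21 ciliated cell genes lay below all controls, and 1 and 0 above. Of all genes tested, 21.5% lay below, so the ciliated count was no higher than that share. The medians against the matched control were -0.38 and -0.45 (log2). On FPKM 4 of 14 and 1 of 21 were below, and 1 and 1 above. Bpifa1, a secreted airway defence protein, was at 224 CPM against 353 to 672, and the carbonyl reductase Cbr2 at 978 against 1538 to 2403. Scgb1a1, the main club cell secretoglobin, was at 2946 CPM, within the wide control range of 2699.9 to 11261.

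Endothelial genes also lay low. Of 25 tested, 16 lay below all 5 controls, 8 of them by at least 1.5-fold, and 1 above, with a median of -0.58 (log2) against the matched control. On FPKM 14 were below and 3 above. Gpihbp1, which anchors lipoprotein lipase to capillary endothelium, was at 13.1 CPM in the irradiated pool. Its controls were 70.2 CPM at 24 hours, 53.8 at 1 week, 73.3 at 4 weeks, 51.5 at 12 weeks and 36.2 at 32 weeks. The irradiated pool was 3.94-fold under its match and below every control. The log2 difference from the 5 controls was -2.12 ± 0.39 (SE; adjusted p = 0.151, edgeR).

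Several receptors of the endothelium lay low beside it. Tek, the receptor of the angiopoietins, was at 24 CPM against 90.5 in the matched control and 47.9 to 100.2 over the 5, the lowest being the 32-week control. The adjusted p of Tek was 0.187 (edgeR). Angpt2, a ligand of Tek, was at 2.56 CPM against 7.64 to 12.1. Aplnr, the apelin receptor, was at 3.25 CPM against 8.99 to 22.4, and Ramp2, part of the adrenomedullin receptor, at 56.2 against 103 to 173. Plvap, of the diaphragms of endothelial vesicles and pores, was at 59.6 CPM against 102 to 226. The member above the controls was Car4, a carbonic anhydrase of a capillary cell subset, at 317 CPM against 172 to 289. Bmpr2, a BMP receptor known from inherited pulmonary hypertension, was at 23.7 CPM against 39.4 to 56.5.

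**Figure D2:**
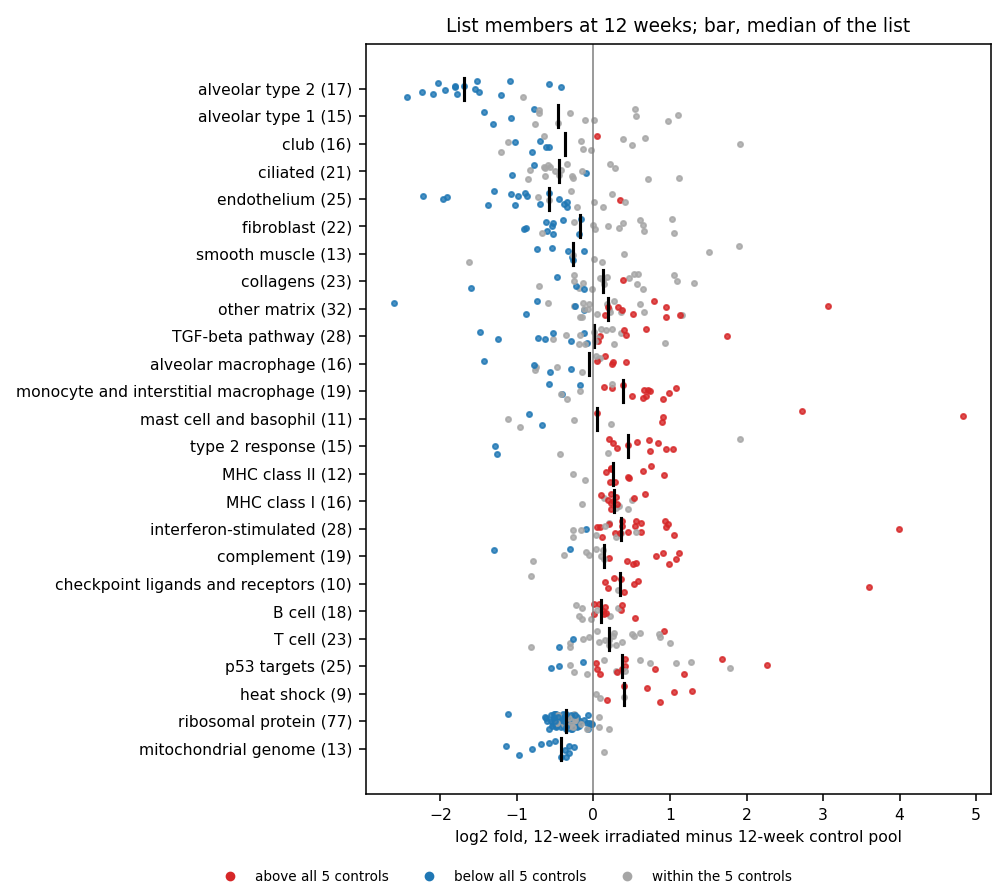
Difference between the 12-week irradiated and the 12-week control pool (log2) for every tested member of 25 gene lists, with the number tested in brackets; colour shows whether the irradiated value lay above, below or within the 5 controls, and the black bar is the median of the list. The type 2 list lies farthest left with a median of -1.69, while 10 of 12 MHC class II, 10 of 15 type 2 response and 18 of 28 interferon-stimulated genes are above all controls.

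Some lists of leukocytes and innate immunity lay high, with smaller differences, and others did not. Of 16 neutrophil genes 5 lay above all 5 controls and 1 below, of 15 natural killer cell genes 2 and 2, and of 9 acute phase genes 1 and 0. Their medians against the matched control were -0.04, -0.09 and -0.29 (log2), and on FPKM 6 of 15, 2 and 2 were above and 1, 0 and 0 below. Genes of lipid-handling macrophages were above for 3 of 14 and below for 1 (median -0.09), on FPKM 5 and 0.

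Of 19 genes of monocytes and interstitial macrophages, 12 lay above all 5 controls and 3 below, with a median of 0.39 (log2) against the matched control, and on FPKM 13 and 0. Cx3cr1, the fractalkine receptor of monocytes, was at 149.9 CPM. Its controls were 73.1 CPM at 24 hours, 103 at 1 week, 65.7 at 4 weeks, 89.5 at 12 weeks and 69.7 at 32 weeks, all below the irradiated pool. F13a1, a factor XIII subunit made by macrophages, was at 374 CPM against 126 to 265, and Ms4a7, a macrophage membrane protein, at 47.9 against 20.8 to 31.5.

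Monocyte chemokines and their receptors lay on both sides, with 7 of 14 above all controls and 4 below, on FPKM 8 and 1. Ccl8, a chemokine that attracts monocytes, stood at 67.3 CPM, and in the controls it was 13.8 CPM at 24 hours, 13.7 at 1 week, 13.8 at 4 weeks, 22.6 at 12 weeks and 17.2 at 32 weeks. No control came near the irradiated pool, and the 12-week control was the highest of the 5. The log2 difference from the 5 controls was 2.05 ± 0.27 (SE; adjusted p = 0.121, edgeR). Ccl2, another monocyte chemokine, was within the controls at 6.28 CPM against 3.38 to 6.41.

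Resident alveolar macrophage genes lay on both sides, with 5 of 16 above all controls and 4 below, on FPKM 5 and 2. Marco, a scavenger receptor, was at 57.3 CPM against 88 to 169, and the keratin Krt79 at 66.8 against 108 to 166. Itgax, the integrin CD11c, was at 486 CPM against 235 to 362. Trem2, a lipid-sensing receptor from the list of lipid-handling macrophages, was at 45.9 CPM against 18.1 to 30.3. Psap, also outside the alveolar macrophage list, is the precursor of the saposins that help lysosomes break down sphingolipids, and was at 4445 CPM. Its controls were 2340.4 CPM at 24 hours, 2093 at 1 week, 2175 at 4 weeks, 2313 at 12 weeks and 1963 at 32 weeks, a narrow range well under the irradiated pool (log2 difference 1.03 ± 0.18 SE, adjusted p = 0.121, edgeR).

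For 2 macrophage products the matched control was itself high. Mmp12, the macrophage elastase, was at 333 CPM, and in the controls it was 33.9 CPM at 24 hours, 26.3 at 1 week, 30.6 at 4 weeks, 162 at 12 weeks and 45.7 at 32 weeks. The irradiated pool was 2.06-fold above its match and far above the other 4. The adjusted p was 0.469 (edgeR). Spp1, osteopontin, was at 784 CPM, and in the controls 277 CPM at 24 hours, 243 at 1 week, 171 at 4 weeks, 629 at 12 weeks and 228 at 32 weeks, so that it exceeded its match by 1.25-fold.

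Mast cell proteases were among the genes above the controls. Tpsb2, a tryptase, was at 16.6 CPM, and in the controls it was 2.89 CPM at 24 hours, 3.24 at 1 week, 0.867 at 4 weeks, 2.38 at 12 weeks and 1.58 at 32 weeks. All 5 lay well under the irradiated pool (log2 difference 2.91 ± 0.49 SE, adjusted p = 0.121, edgeR). Cpa3, the mast cell carboxypeptidase, was at 26.1 CPM against 6.4 to 13.8, and the chymase Cma1 at 32.6 against 10.3 to 17.5. The protease Mcpt4 was at 6.9 CPM against 0.0849 to 1.39, the lowest being 1 count in the 12-week control. The mast cell and basophil list as a whole had 5 of 11 above all controls and 2 below. Its median was 0.04 (log2) against the matched control. Summed, it stood at 216.7 CPM, with 222.9 in the matched control and 189 to 244.2 over the 5. The members below were Hdc, which makes histamine, at 63.8 CPM against 88.4 to 133, and the transcription factor Gata2, at 9.14 against 14.6 to 29.3.

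Genes tied to type 2 immunity were above all controls for 10 of 15 and below for 2 (on FPKM 10 and 2 of 14), with a median of 0.45 (log2) against the matched control. Chil4, a chitinase-like protein, was at 50.6 CPM against 8.62 to 24.6, and Ccl24, an eosinophil chemokine, at 19 against 3.99 to 11.4. Clca1, a product of goblet cells, was at 88 CPM, with controls spread from 2.22 to 45.4. For all 3 the matched control was the highest of the 5. Chil4, the mast cell proteases, the MHC genes and the Oas genes belong to families with near-identical copies, so reads could be split among relatives in the authors' counting.

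Antigen presentation genes lay a little above the controls. Of 12 MHC class II genes, 10 were above all 5 controls and 0 below, with a median of 0.26 (log2) against the matched control. Of 16 class I genes, 10 were above and 0 below, and on FPKM 13 and 0. Ciita, the activator of class II transcription, was at 107 CPM against 45.5 to 81.6, H2-DMb1, which helps load peptides, at 421 against 203 to 305, and H2-Eb1, a class II chain, at 2258 against 1278 to 1756. Checkpoint ligands and receptors were above for 8 of 10 and below for 0. Among them the PD-1 ligand Cd274 was at 61.2 CPM against 27 to 46.5, its relative Pdcd1lg2 at 8.37 against 2.56 to 5.52 and Cd86 at 69.96 against 32.3 to 58.1.

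B cell genes were above all controls for 10 of 18 and below for 0, and on FPKM 13 and 0. Their median against the matched control was small, at 0.099 (log2). Summed over the list, the level was 5073 CPM, with 4898 in the matched control and 2660 to 5448 over the 5. Cr2, the complement receptor CD21, was at 82.9 CPM against 24.8 to 56.6, the transcription factor Spib at 83.4 against 46.2 to 69.7 and the adaptor Bank1 at 227 against 92.6 to 203. T cell genes were above all controls for 1 of 23 and below for 2, on FPKM 3 and 2. Their sum was 1533 CPM within a wide control range of 1124 to 2271. All 7 thymocyte genes lay within the controls (on FPKM 2 above and 0 below) and over the matched control, with a median of 1.5 (log2). They summed to 192.4 CPM, with 81.75 in the matched control and 56.43 to 363.3 over the 5.

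Interferon-stimulated genes were above all 5 controls for 18 of 28 and below for 1, with a median of 0.36 (log2) against the matched control. On FPKM 17 of 27 were above and 0 below. Ifit3, an antiviral effector, was at 41.4 CPM, and in the controls it was 22.3 CPM at 24 hours, 24.5 at 1 week, 23.8 at 4 weeks, 26.9 at 12 weeks and 20.3 at 32 weeks. Oas1a and Oas3, of the oligoadenylate synthetase family that senses double-stranded RNA, were at 59.96 CPM against 31 to 42.2 and at 21.4 against 8.51 to 12.6. Samd9l, an interferon-induced gene outside the list, was at 98.2 CPM against 40.03 to 50.4. No control reached the irradiated value in these 4 genes, and adjusted p was 0.258 for Ifit3, 0.278 for Oas1a, 0.29 for Oas3 and 0.121 for Samd9l (edgeR).

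The 250 bases before the start of 3 of these genes are shown from RefSeq (GRCm38.p6), since they were high together. Capitals mark GAAANNGAA on either strand, a core of the element bound by interferon regulatory factors.
Ifit3 (chr19:34583279-34583528, plus strand): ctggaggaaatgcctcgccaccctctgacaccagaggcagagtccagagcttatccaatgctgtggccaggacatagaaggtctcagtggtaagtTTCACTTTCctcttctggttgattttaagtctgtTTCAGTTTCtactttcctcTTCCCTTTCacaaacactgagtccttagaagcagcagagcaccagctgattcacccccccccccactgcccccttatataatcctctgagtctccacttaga
Oas1a (chr5:120907526-120907775, minus strand): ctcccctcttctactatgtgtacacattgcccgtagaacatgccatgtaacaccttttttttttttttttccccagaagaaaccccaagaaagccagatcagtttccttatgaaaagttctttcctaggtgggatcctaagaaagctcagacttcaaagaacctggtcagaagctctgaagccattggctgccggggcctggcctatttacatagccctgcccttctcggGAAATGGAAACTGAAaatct
Oas3 (chr5:120777660-120777909, minus strand): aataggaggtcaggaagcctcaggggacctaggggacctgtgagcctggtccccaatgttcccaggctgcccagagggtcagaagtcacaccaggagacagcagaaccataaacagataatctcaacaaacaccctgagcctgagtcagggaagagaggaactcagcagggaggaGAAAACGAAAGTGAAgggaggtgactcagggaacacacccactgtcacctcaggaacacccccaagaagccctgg
The letters stood in 13 of 23 promoters of the listed interferon-stimulated genes (56.5%) and in 7.13% of all 32851 promoters. Of the 29 listed genes, tested or not, 20 were matched. In Oas1a and Oas3 the 2 matches overlap. The list was drawn up from known interferon targets, so this share describes the list and not the irradiated pool.

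Complement genes were above all controls for 9 of 19 and below for 2, and on FPKM 13 and 1. C4b, of the classical pathway, was at 431 CPM against 207 to 263, C3ar1, the receptor of the C3a fragment, at 58.6 against 19.3 to 27.2, and Cfb, of the alternative pathway, at 199 against 84.1 to 135. Heat shock genes were above for 6 of 9 and below for 0, on FPKM 7 and 0. Hsph1, a large chaperone, was at 196 CPM against 65.6 to 94.4 (log2 difference 1.23 ± 0.21 SE, adjusted p = 0.121, edgeR). The chaperone Hspa8 was at 3248 CPM against 1149 to 2072 and the inducible Hspa1a at 18.2 against 7.98 to 12.6.

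**Figure D3:**
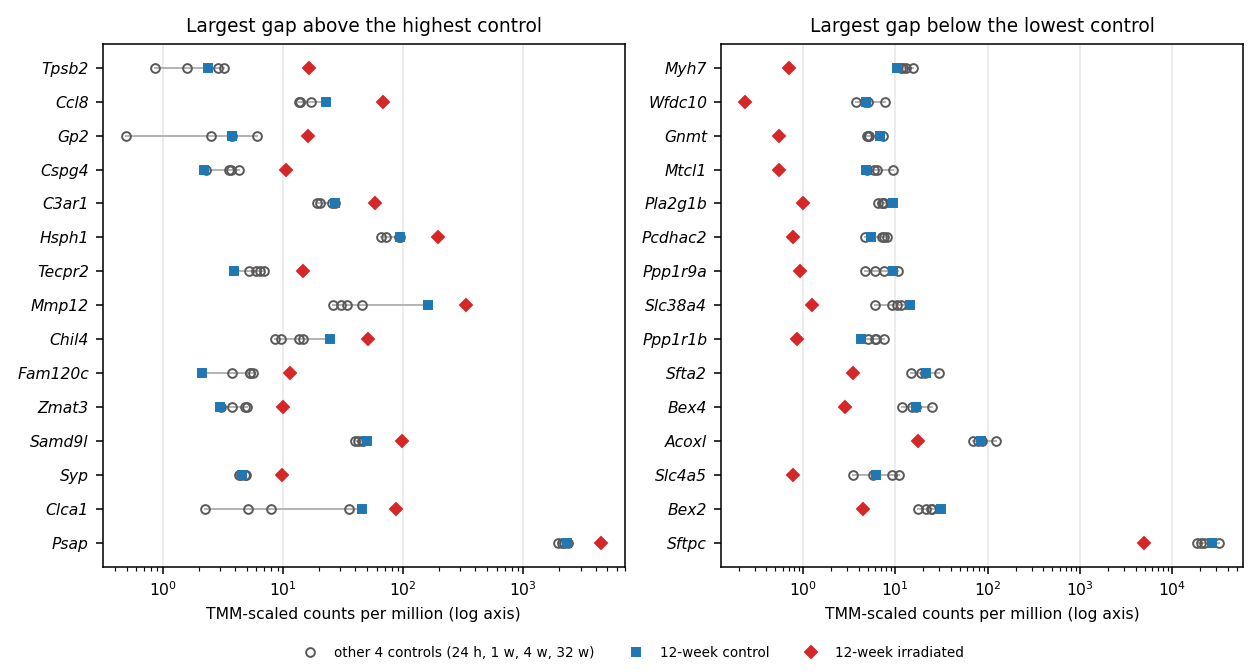
The 15 genes with the largest gap above the highest control (left) and below the lowest control (right), among genes averaging at least 50 counts, in CPM (log axis) with 1 point per pool. Diamonds are the 12-week irradiated pool, squares its matched control and circles the other 4 controls, and for Mmp12 the square stands away from the circles.

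The gene with the largest gap below the controls was Myh7, a slow myosin heavy chain. It stood at 0.697 CPM (9 counts) in the irradiated pool, and in the controls it was 15.4 CPM at 24 hours, 12.9 at 1 week, 12.2 at 4 weeks, 10.4 at 12 weeks and 11.6 at 32 weeks. Its adjusted p of 0.098 was the smallest of the comparison (edgeR). Heart muscle genes as a list did not share this, with 5 of 13 above all controls, 1 below and 7 within, on FPKM 5 of 11 above and 0 below. Sfta2, a secreted surfactant-associated protein, was at 3.49 CPM against 14.6 to 29.9, and the secreted phospholipase Pla2g1b at 1.01 against 6.49 to 9.51. Acoxl, an acyl-CoA oxidase-like gene, was at 17.5 CPM against 68.8 to 122. The X-linked Bex2 and Bex4 were at 4.42 CPM against 17.5 to 31.2 and at 2.87 against 11.9 to 25. Slc38a4, an amino acid transporter, was at 1.24 CPM against 6.02 to 14.3, and Gnmt, which methylates glycine, at 0.542 against 4.91 to 7.26. Wfdc10, Mtcl1, Pcdhac2, Ppp1r9a, Ppp1r1b and Slc4a5 were at 0.232 (3 counts) to 0.93 CPM and at 3.49 CPM or more in every control.

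On the high side of the same ranking, Gp2, a glycoprotein of microfold cells, was at 16 CPM against 0.495 to 6.02. Cspg4, the NG2 proteoglycan of pericytes, was at 10.6 CPM against 2.21 to 4.29. It was the only 1 of 6 pericyte genes above all controls, and 2 lay below. The median of that list was -0.17 (log2) against the matched control, and on FPKM 0 of 3 were above and 1 below. Tecpr2, which acts in autophagy, was at 14.6 CPM against 3.9 to 6.94. These genes have few counts, and their adjusted p was 0.3 for Gp2, 0.232 for Cspg4 and 0.252 for Tecpr2 (edgeR). Fam120c was at 11.5 CPM against 2.12 to 5.65, and the synaptic vesicle protein Syp at 9.76 against 4.26 to 4.95.

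Targets of p53, the transcription factor that DNA damage activates, were above all 5 controls for 11 of 25 genes and below for 3, with a median of 0.38 (log2) against the matched control. On FPKM 13 of 23 were above and 0 below. Cdkn1a, the cell cycle inhibitor p21, was at 109.9 CPM, and in the controls it was 75 CPM at 24 hours, 72.7 at 1 week, 58.9 at 4 weeks, 48.3 at 12 weeks and 68.4 at 32 weeks. It lay above each of them, and its adjusted p was 0.288 (edgeR). The members at least 1.5-fold above the highest control were 2, the receptor Eda2r, at 6.35 CPM against 1.11 to 2.86, and the RNA-binding Zmat3, at 9.92 against 2.97 to 5. Ccng1, cyclin G1, was at 153 CPM against 75.9 to 117, and Mdm2, the ligase that degrades p53, at 68.9 against 53.3 to 67.3. Gdf15, a stress-induced cytokine, was within the controls at 5.66 CPM. Cdkn2a, a senescence gene, had 0 counts in both 12-week pools, and a count of 0 allows up to 3.

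Collagen genes were not high as a group. Of 23 collagen genes, 1 lay above all controls, 4 below and 18 within, on FPKM 1 of 19 above and 2 below. Col1a1 was at 154 CPM and Col3a1 at 752, inside control ranges of 97.8 to 306 and 414 to 1272. Both stood above the matched control, by 0.65 and 0.57 (log2), while against the 5 controls the differences were -0.35 ± 0.53 and -0.14 ± 0.57 (SE). Col5a1, a minor fibrillar collagen, was at 25.2 CPM against 33.1 to 56.8.

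Fn1, the matrix glycoprotein fibronectin, was at 1076 CPM, and in the controls it was 503 CPM at 24 hours, 434 at 1 week, 599 at 4 weeks, 558 at 12 weeks and 564 at 32 weeks. It was higher than every control (log2 difference 1.02 ± 0.19 SE, adjusted p = 0.151, edgeR). The list of other matrix genes, which holds Fn1, was above all controls for 10 of 32 and below for 5, on FPKM 9 and 2 of 30. Its median was 0.18 (log2) against the matched control and -0.14 against the 5 controls. Itgav, a subunit of integrins that bind fibronectin, was at 81.7 CPM against 45 to 57, and Mfap5, of elastic microfibrils, at 43.2 against 59.8 to 114. The protease inhibitor Timp1 and the growth factor Tgfb1 were within the controls, at 7.98 and 68.7 CPM.

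Fibroblast genes were below all 5 controls for 10 of 22 and above for 0, with a median of -0.18 (log2) against the matched control, and on FPKM 7 and 2. The alcohol dehydrogenase Adh1 was at 108 CPM against 146 to 172, the matrix protein Dpt at 27.2 against 39.4 to 67.5 and the methyltransferase Inmt at 357 against 471 to 1042. In the TGF-beta pathway 6 of 28 were above and 8 below, and on FPKM 8 and 5. These counts are near the shares of all genes tested (21.9% above, 21.5% below), and the median was 0.01 (log2) against the matched control. On the low side, Bambi, a decoy receptor, was at 9.84 CPM against 19.3 to 27.8, and Ltbp3, which binds latent TGF-beta, at 26.3 against 41 to 55.7.

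Some lists not tied to a cell type lay apart as well. Ribosomal protein genes were below all 5 controls for 57 of 77 and above for 0, with a median of -0.35 (log2) against the matched control, but on FPKM 29 and 1. Rpl23a, for example, was at 116 CPM against 152 to 194. The ribosomal list was not low at 12 weeks alone. At 24 hours and 1, 4 and 32 weeks, 46, 74, 72 and 59 lay below in the irradiated pools. The counts above were 1, 1, 0 and 1. Genes of the mitochondrial genome were below for 12 of 13 and above for 0, on FPKM 9 and 1. Of these, mt-Nd2, a subunit of respiratory complex I, was at 241 CPM against 383 to 651. In the same order of times, the other irradiated pools had 0, 7, 13 and 11 mitochondrial genes below and 4, 0, 0 and 0 above. Clock genes were below for 9 of 17 and above for 3, on FPKM 4 and 5. Nr1d1, a clock repressor, was at 16.3 CPM against 35 to 59.7, and the clock output gene Dbp at 5.66 against 10.02 to 29.6. The part of these differences in the results above was not tested.

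The irradiated pools of the neighbouring times are set beside the 12-week pool here, and all are read against the same 5 controls. The shares of all genes tested, 21.9% above and 21.5% below, are those of the 12-week pool. For the pools of 4 and 32 weeks such shares were not computed, so their counts stand without that baseline. Type 2 genes were above all controls for 13 and below for 0 of 17 at 4 weeks, for 0 and 16 at 12 weeks and for 0 and 16 at 32 weeks. Sftpc was at 43089 CPM at 24 hours, 43777 at 1 week, 31767 at 4 weeks, 4967 at 12 weeks and 5940.5 at 32 weeks in the irradiated pools. Endothelial genes were below all controls for 3 and above for 3 of 25 at 4 weeks. At 12 weeks these counts were 16 and 1, and at 32 weeks 6 and 4. Against the matched control of each time, the endothelial medians were -0.42 at 4 weeks, -0.58 at 12 weeks and 0.31 at 32 weeks (log2). MHC class II genes were above all controls for 0 and below for 2 of 12 at 4 weeks. At 12 weeks these counts were 10 and 0, and at 32 weeks 2 and 1. Against the matched controls, however, the class II medians at 4 and 12 weeks were close, at 0.185 and 0.257 (log2). At 32 weeks the median was -0.183. Tpsb2 was at 2 CPM at 24 hours, 2.18 at 1 week, 0.384 at 4 weeks, 16.6 at 12 weeks and 41.5 at 32 weeks in the irradiated pools.

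**Figure D4:**
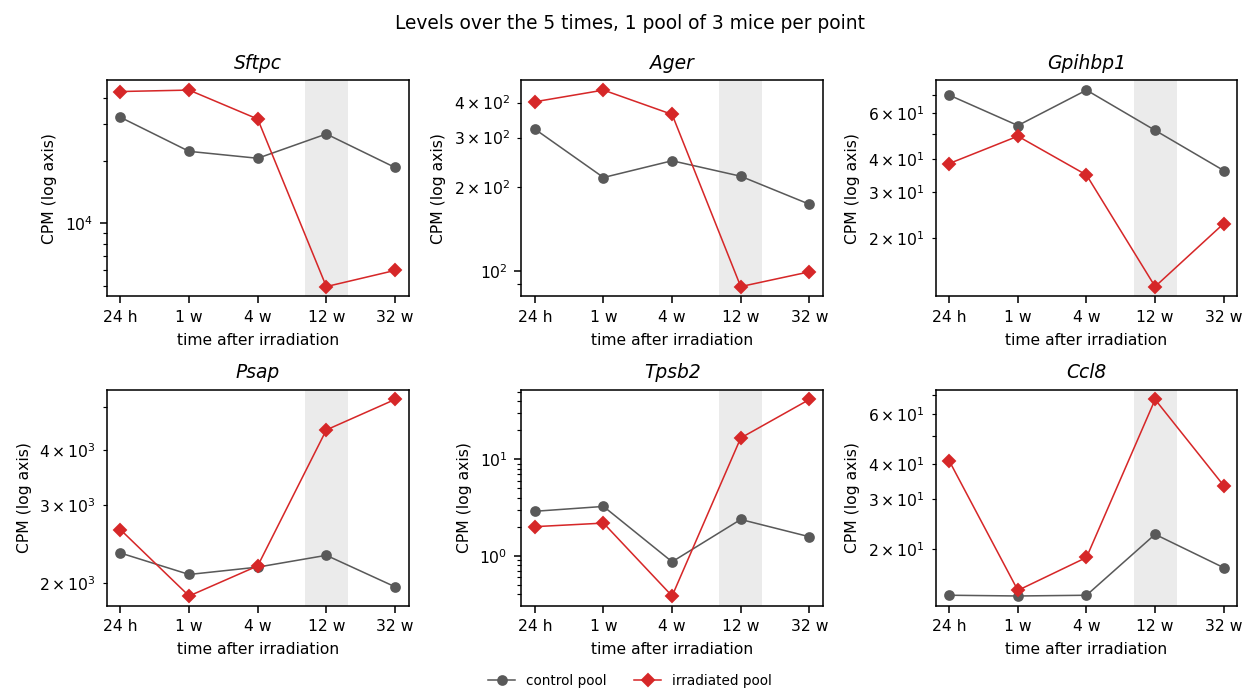
CPM (log axis) of 6 genes in the control pools (circles) and irradiated pools (diamonds) at 24 hours and 1, 4, 12 and 32 weeks, with 1 pool of 3 mice per point and 12 weeks shaded. Sftpc and Ager lie under the matched control at 12 and 32 weeks, Psap and Tpsb2 lie over it at both times, Gpihbp1 is lowest at 12 weeks and Ccl8 is highest there.

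The 12-week pool was also tested against the mean of the 4-week and 32-week irradiated pools. Again 0 of 15625 genes were higher and 0 lower at an adjusted p under 0.05 (edgeR, 0% in each direction, smallest adjusted p 0.104), with 591 and 1064 at an unadjusted p under 0.05. DESeq2 called 37 higher and 216 lower. On the low side the genes of smallest p were Myh7, Slc38a4, Wwc1, Trpm6 and Depp1. The magnesium channel Trpm6 was at 1.7 CPM at 12 weeks, 19.9 at 4 weeks and 8.13 at 32 weeks, with controls from 5.81 to 9.99. Wwc1, of the Hippo pathway, was at 23.9, 89.1 and 69.8 CPM, and Depp1 at 5.73, 21.4 and 35.2. The 12-week pool was lowest in all 3, and below its controls.

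On the high side were Cpne5, Tbc1d9, Slc9a4, Abca8a and Ear1. Tbc1d9 was at 65.5 CPM at 12 weeks, 20.8 at 4 weeks and 41.7 at 32 weeks, with controls from 33.4 to 38.5. The sodium-proton exchanger Slc9a4 was at 59.8, 12 and 43.6 CPM. These 2 lay above their controls at 12 weeks. Ear1, a ribonuclease, was at 122, 28.2 and 107 CPM with controls from 137 to 193, and Cpne5 at 37.7, 6.06 and 27.1 with controls from 39.2 to 48.5. Both were thus below their controls at 12 weeks, and lower still in the 4-week pool. The transporter Abca8a was at 36.6, 31.8 and 8.13 CPM and within its controls at 12 weeks.

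The test takes its spread from 5 control pools of different ages and assumes that the irradiated pool varies like them. With 1 irradiated pool at 12 weeks, irradiation, pool and library cannot be told apart.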

How the data were processed

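RNA was extracted with the Qiagen RNeasy PLUS kit and made into libraries with Clontech ultralow and NexteraXT reagents, per the labels' protocols. Trimmomatic 0.32, STAR 2.4.2a, Cufflinks 2.0.2, Cuffdiff and the build GRCm38.p4 are named in the submitters' processing notes, without their roles. For 45786 genes the authors deposited whole-library tables of expected counts, which need not be whole numbers. They also deposited FPKM, which is scaled to gene length and library size. Low counts fell on multiples of a value that varied by library. The share of whole multiples was 78.5% to 81.7% (values up to 10, tolerance 0.05), so the deposited counts had been rescaled. Of the tables' columns, 0 belonged to no sample, and 0 library pairs held identical values.

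Counts were rounded, filtered (filterByExpr, minimum count 10) and scaled by TMM. The 12-week irradiated pool was compared with the 5 controls by edgeR 4.0.16 in R 4.3.3 (quasi-likelihood test, Benjamini-Hochberg, threshold 0.05). DESeq2 1.42.0 and limma 3.58.1 served as alternatives, and the code was tested on simulated data. P-values measure only the spread between pools, which may be technical. NexteraXT does not mark strand, so overlapping genes share reads.

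The members and gene lists were chosen with earlier results of these data known. Named genes were the 15 in each direction with the largest gap to the nearest control among those averaging at least 50 counts. Immunoglobulin and T cell receptor segments, predicted genes and pseudogenes were counted but not named. Added were a fixed set of radiation and lung genes, up to 3 members of smallest p of each list, and the 5 of smallest p in each direction against the other irradiated pools. Members of marker lists could be given at their values, and which of them are given was chosen with their values known.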

Additional observations from a re-analysis of the deposited data

Results flagged for a closer look

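Among 122 genes looked at, 9 had 1 of the 5 control pools standing away from the other 4 (the gap to the nearest divided by the range was above 0.71), and chance alone does this in about 1 of 20 such groups. The 12-week control was high for Mmp12 at 162 CPM (the other 4 from 26.3 to 45.7) and for Spp1 at 629 CPM (the other 4 from 171 to 277). The 12-week irradiated pool was above both, at 333 and 784 CPM. The 4-week control was low for H2-DMb1 at 203 CPM (the other 4 from 295 to 305), for H2-Eb1 at 1278 CPM (the other 4 from 1646 to 1756) and for Cpne5 at 39.2 CPM (the other 4 from 46.1 to 48.5), and high for Depp1 at 19.8 CPM (the other 4 from 13 to 13.7). The 32-week control was low for Tek at 47.9 CPM (the other 4 from 86.3 to 100.2) and for Adh1 at 146 CPM (the other 4 from 165 to 172). The 24-hour control was high for Sftpd at 1197 CPM (the other 4 from 569 to 747). In all 9 genes the 12-week irradiated value lay outside the range of the 5 controls. The genes looked at were partly chosen for lying outside that range, so this was largely set by the choice.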

How the results depend on the processing

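The counts of genes past the threshold depended on the tool and on the filter. DESeq2's Wald test called 67 higher and 171 lower, and limma on log2(FPKM + 1) 44 and 11, with a pseudocount of 0.1 5 and 13, and without a filter 694 and 15. Without the filter on low counts edgeR called 9 and 35. With the 12-week control alone as the reference it called 1 and 0. DESeq2's size factors, library totals, counts divided by the library step and log2 days as a covariate each gave 0 and 0. Leaving out 1 control gave 0 to 2 higher (Mmp12 and Ccl8 without the 12-week control) and 0 to 2 lower (Gm6169 without the 4-week control, Tek and Myzap without the 32-week control). Against the 4- and 32-week irradiated pools, DESeq2 called 37 higher and 216 lower, and every other alternative run 0.

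Of the named genes' differences from the 5 controls under all alternatives, 16 reversed. With the 12-week control alone as reference, and likewise with time as block, Tgfb1 was at 0.275, Col1a1 at 0.651 and Col3a1 at 0.571 (log2). With log2 days as covariate, Col1a1 was at 0.0839 and Col3a1 at 0.439. By limma on log2(FPKM + 1), with or without the filter, Col3a1 was at 0.0245 and Abca8a at 0.335, and with a pseudocount of 0.1 at 0.0258 and 0.387. Leaving out 1 control, Col3a1 ranged from -0.307 to 0.0713. The cause was not tested. A fit chosen after seeing the data paired the irradiated and control pool of each time, with time as replicate block over all 10 libraries (3 residual degrees of freedom). It called 0 higher and 0 lower (edgeR, smallest adjusted p 0.585), with 628 and 558 at an unadjusted p under 0.05. Its spread is that of the irradiation difference over the other 4 times, so real changes with time enter it. The 12-week control, with the fewest fragments, limits matched ratios of genes at a few CPM.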
